A study of Mus musculus with 4 samples.

Results

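Costimulatory receptors are the surface proteins that add a further signal when a T cell recognises antigen, and this account covers the transcripts of 10 of them in CD8+ T cells taken from tumours. The genes were chosen by symbol: Tnfrsf9, Tnfrsf4, Tnfrsf18, Tnfrsf1b, Cd27, Cd28, Icos, Cd2, Cd226 and Cd69. All 10 were found among the 36464 Ensembl gene IDs of the deposited files. The cells had been enriched as CD8+ from percutaneous tumour grafts of male wild-type C57BL/6 mice. One arm received an antibody against SIGLEC15, a sialic-acid-binding lectin studied as a brake on immune responses, and the other arm received IgG, both into the peritoneum. Each arm had 6 mice, grafts were taken on day 19 after 2 weeks of injections, and the pellets of 3 samples were mixed for each library, so that anti-SIGLEC15 replicates 1 and 2 and IgG replicates 1 and 2 are pools of animals and their spread is the spread between pools. The labels do not name the grafted tumour line. The study asks how tumour CD8+ T cells change when SIGLEC15 is blocked.

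T cell receptor binding alone gives a weak or blunted response, and costimulatory receptors decide much of what follows. Members of the tumour necrosis factor receptor superfamily (4-1BB, OX40, GITR, TNFR2 and CD27) recruit TRAF adaptors and switch on NF-kB, which favours survival and division. Members of the immunoglobulin superfamily (CD28, ICOS, CD2 and CD226) work through kinases such as PI3K and LCK, and CD28 and CD226 compete for ligands with the inhibitory receptors CTLA-4 and TIGIT. CD69, a C-type lectin that appears within hours of activation, keeps cells in tissue by opposing the egress receptor S1PR1. On resting T cells CD27, CD28, CD2, CD226 and TNFR2 are already present, whereas 4-1BB, OX40, GITR, ICOS and CD69 are induced or strongly raised by activation.

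The libraries held between 14854803 and 16026198 reads counted in genes, and IgG replicate 1 stood apart from the other 3. Cd8a, which encodes the alpha chain of the CD8 coreceptor and was used here as the yardstick for T cell content, measured 290.2 and 315 RPKM (reads scaled to exon length and to the reads counted in the library) in anti-SIGLEC15 replicates 1 and 2, against 115 and 351 RPKM in IgG replicates 1 and 2. Cd8b1 and Cd3e were likewise lowest in IgG replicate 1, at 172 and 11.0 RPKM, and lay between 336 and 482 RPKM and between 30.2 and 35.9 RPKM in the other libraries. The summed level of 12 hepatocyte and hepatoma genes, all detected and led by Alb and Trf, was 2580 and 1269 RPKM in the anti-SIGLEC15 libraries, against 6027 and 1219 RPKM in the IgG libraries. Neutrophil genes, led by S100a9 and S100a8, summed to 214 and 368 RPKM with anti-SIGLEC15, against 842 and 67.7 RPKM with IgG. Red cell genes, led by Hbb-bs and Hba-a1, summed to 113 and 19.9 RPKM with anti-SIGLEC15, against 691 and 1929 RPKM with IgG. Mitochondrial genes took 8.91% and 18.4% of the counted reads in anti-SIGLEC15 replicates 1 and 2, against 11.9% and 13.0% in IgG replicates 1 and 2. The anti-SIGLEC15 libraries were thus the lowest and the highest. Cd8a and Cd8b1 were abundant in every library, as the label of CD8+ cells implies. Of the genes listed for CD4 T cells, Zbtb7b was the most abundant, between 4.82 and 15.6 RPKM, and Cd4 lay between 2.04 and 6.83 RPKM. Zbtb7b exceeded Cd4 in every library and was highest in IgG replicate 1, where Cd4 was lowest. The part of the other cell types' RNA in the levels below was not tested. In such bulk samples, fewer T cells and less RNA per T cell cannot be told apart.

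Tnfrsf9, Tnfrsf4, Tnfrsf18 and Tnfrsf1b are all on mouse chromosome 4, and Tnfrsf18 and Tnfrsf4 are separated by only 9.55 kb (build GRCm38, as for all positions here). The 250 bases before the RefSeq starts of Tnfrsf9, Tnfrsf4 and Tnfrsf18 are shown because each of these 3 genes had another of them as the member nearest in pattern across the libraries. The sequences are RefSeq's on GRCm38.p6, 5′ to 3′ on the plus strand, with matches on either strand to the NF-kB consensus, to the AP-1 motif TGANTCA and to the NFAT core GGAAAA in capitals. Tnfrsf9 has 2 RefSeq starts, at chr4:150919905-150920154 and chr4:150927749-150927998, and Tnfrsf4 and Tnfrsf18 are at chr4:156013445-156013694 and chr4:156026072-156026321.
Tnfrsf9, upstream start: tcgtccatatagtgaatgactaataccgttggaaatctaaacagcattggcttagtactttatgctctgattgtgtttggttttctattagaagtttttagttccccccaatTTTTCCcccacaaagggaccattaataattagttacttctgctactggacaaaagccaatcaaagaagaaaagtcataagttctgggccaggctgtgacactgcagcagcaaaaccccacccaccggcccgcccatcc
Tnfrsf9, downstream start: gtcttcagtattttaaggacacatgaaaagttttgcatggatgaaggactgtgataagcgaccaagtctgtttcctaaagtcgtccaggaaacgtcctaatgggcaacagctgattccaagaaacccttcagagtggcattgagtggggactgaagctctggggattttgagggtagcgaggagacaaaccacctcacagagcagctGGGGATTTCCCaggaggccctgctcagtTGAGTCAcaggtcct
Tnfrsf4: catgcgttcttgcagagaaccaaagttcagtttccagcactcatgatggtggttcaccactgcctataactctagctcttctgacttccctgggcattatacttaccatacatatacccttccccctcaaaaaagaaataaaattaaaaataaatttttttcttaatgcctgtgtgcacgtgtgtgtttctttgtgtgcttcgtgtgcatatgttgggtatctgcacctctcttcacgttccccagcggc
Tnfrsf18: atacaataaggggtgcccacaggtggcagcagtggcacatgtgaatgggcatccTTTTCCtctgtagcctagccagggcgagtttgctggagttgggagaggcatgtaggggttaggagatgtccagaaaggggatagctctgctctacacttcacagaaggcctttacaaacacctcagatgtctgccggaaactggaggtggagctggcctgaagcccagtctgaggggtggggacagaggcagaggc

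The downstream start of Tnfrsf9 had an NF-kB stretch, matched at overlapping positions 43 and 42 bases before the start, and an AP-1 match 15 bases before it. Its upstream start and that of Tnfrsf18 each had 1 NFAT match, at 138 and 196 bases before the start. The Tnfrsf4 window held none of these letters. Among 32851 RefSeq promoter windows of this length, 3.9% held the NF-kB consensus, 6.7% the AP-1 motif and 20.4% the NFAT core. The RefSeq start of Tnfrsf4 lies upstream of the GENCODE gene and that of Tnfrsf18 lies inside the GENCODE gene, so these windows depend on the annotation. Promoter entries were found for 5 of the 10 genes.

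All 10 receptor transcripts were readily detected in every library, and their order of abundance was similar in all 4. Reads per gene and library ran from 174 for Cd28 in IgG replicate 1 to 11207 for Tnfrsf1b in anti-SIGLEC15 replicate 2, so that counting error alone gave an exact Poisson 95% interval of 1.52 to 2.06 RPKM around the lowest of these values and of 1.86% to either side of the highest read count. Cd2 and Tnfrsf4 held ranks 1 and 2 in all 4 libraries, Tnfrsf1b and Tnfrsf9 ranks 3 and 4, Cd27, Tnfrsf18 and Cd69 ranks 5 to 7, Cd226 and Icos ranks 8 and 9, and Cd28 was the least abundant everywhere. These blocks were drawn from the ranks themselves, so no gene could cross into another. In the top blocks the order differed by treatment: Cd2 stood above Tnfrsf4 and Tnfrsf1b above Tnfrsf9 in both anti-SIGLEC15 libraries, and the reverse held in both IgG libraries. Some margins were narrow: Tnfrsf1b and Tnfrsf9 had 84.8 and 81.0 RPKM in anti-SIGLEC15 replicate 1 and 131 and 136 RPKM in IgG replicate 2. Cd2 and Tnfrsf4 had 206 and 227 RPKM in IgG replicate 2. How often other pairs of genes change order in this way was not counted. Tnfrsf18 changed places with Cd27 between the IgG libraries and with Cd69 between the anti-SIGLEC15 libraries, while Cd27 stood above Cd69 in all 4. Cd226 and Icos changed places between the libraries of each treatment. Averaged over all libraries, Cd2 had 184 RPKM and Cd28 had 4.07 RPKM, a level that falls well under that of the related receptor Icos at 13.2 RPKM.

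**Figure D1:**
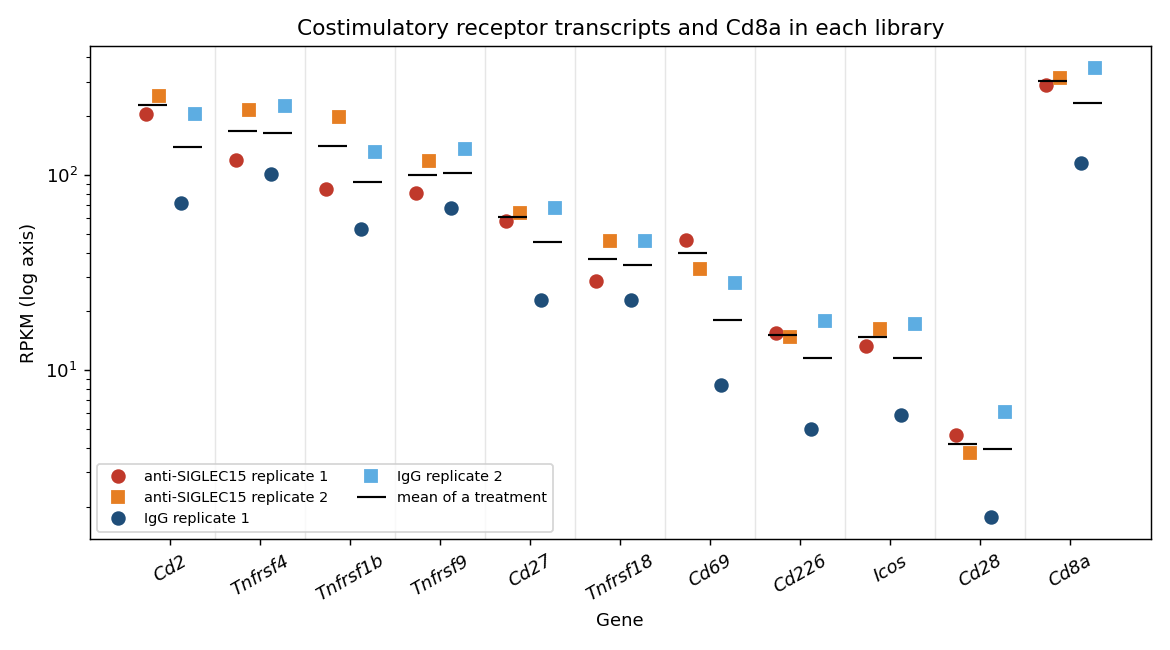
Each point is the RPKM of a gene (horizontal axis, ordered by mean level, with Cd8a at the right) in 1 library on a log axis, anti-SIGLEC15 left of IgG, and bars are treatment means of 2 libraries. IgG replicate 1 is the lowest point for all 10 receptors, as it is for Cd8a at 115 RPKM.

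Every receptor had its lowest level in IgG replicate 1. That library was the lowest for 10 of 10 members, against 43.4% of the 12484 genes tested, and IgG replicate 2 exceeded it by 2.02-fold for Tnfrsf18 to 3.58-fold for Cd226, where Cd8a differed by 3.06-fold. It was also the lowest for all 19 tested genes of a T cell identity list, led by Trbc2 and Trac, and for all 9 inhibitory receptor genes. IgG replicate 2 was the highest library for 7 members. The treatments overlapped for 9 of 10 members. Only for Cd69 did both anti-SIGLEC15 pools exceed both IgG pools. Among the 12484 genes, 12.1% did so and 6.02% lay lower in both, so that 1 of 10 is near the background.

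No receptor passed the test of anti-SIGLEC15 against IgG. limma on log2(RPKM + 1), with Benjamini-Hochberg adjustment over all genes, called 0 of 10 members and 0 of 12484 genes (0%), with 0 members and 146 genes (1.17%) at an unadjusted p under 0.05. limma-voom on recovered reads also called 0 genes, with 90 of 15061 at an unadjusted p under 0.05. All 10 log2 fold changes were positive, with a median of 0.55 against 0.02 over all genes tested, and each adjusted p was 1. With 2 libraries against 2, an exact two-sided permutation test of a gene cannot go below 0.333. Without IgG replicate 1 the members' median was -0.22, and 8 of 10 were negative. Without IgG replicate 2 it was 1.24, and all 10 were positive. That fit keeps only IgG replicate 1 on the IgG side and borrows its spread from the anti-SIGLEC15 libraries. Its calls therefore do not measure the spread between pools of both treatments. The direction of the median followed which IgG library was kept.

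Divided by Cd8a in the same library, the members differed less between the IgG pools. IgG replicate 2 over IgG replicate 1 then ran from 0.662-fold to 1.17-fold over the members, with a median of 0.949-fold. Cd27, Icos and Cd226 kept nearly the same proportion to Cd8a in all libraries. Cd2 and Cd69 were a larger share of Cd8a in both anti-SIGLEC15 libraries. Tnfrsf9, Tnfrsf4 and Tnfrsf18 had lower mean shares of Cd8a with anti-SIGLEC15, and of these Tnfrsf9 did so without overlap of the libraries, though not against Cd8b1 or Cd3e.

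**Figure D2:**
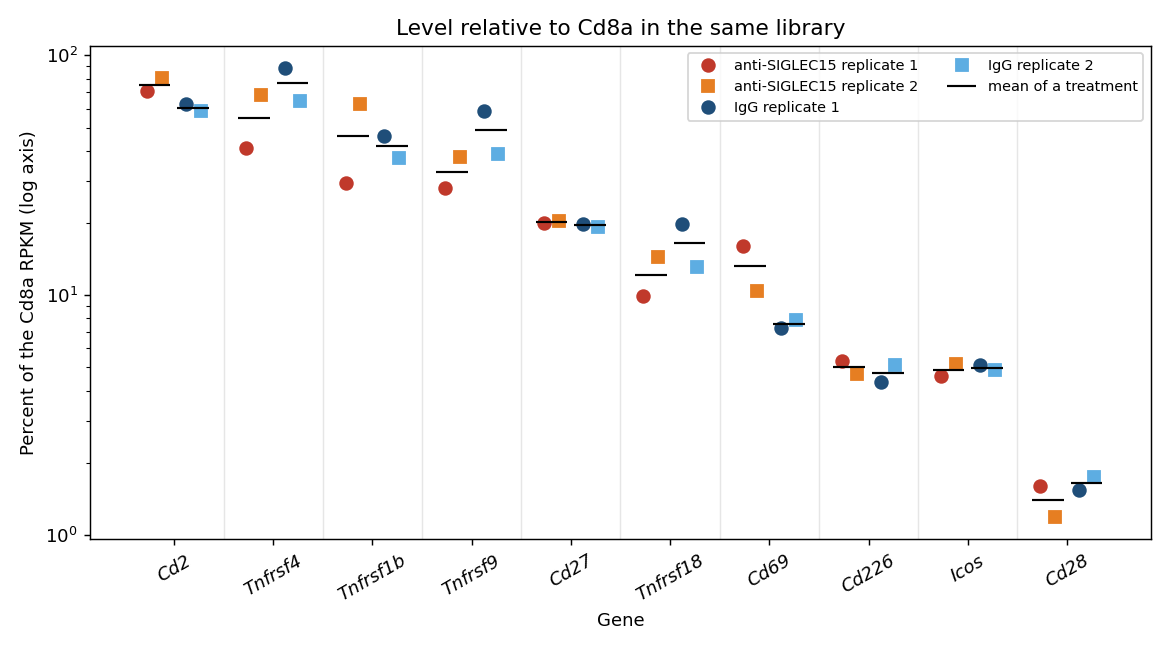
Each point is the RPKM of a receptor as a percent of the Cd8a RPKM in the same library (log axis), anti-SIGLEC15 left of IgG, with bars at the treatment means of 2 libraries. Cd27 stays between 19.3% and 20.3%, Cd69 is higher in both anti-SIGLEC15 libraries, and IgG replicate 1 is the highest point for Tnfrsf9, Tnfrsf4 and Tnfrsf18.

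Relative to Cd8a, the same model called 0 of 10 members and 0 of 12484 genes (0%), with 0 members and 66 genes (0.529%) at an unadjusted p under 0.05. The adjusted p of the members lay between 0.932 and 0.990. The fit shares its estimate of spread across all Cd8a-scaled genes, and the SE of the members was 0.81 to 0.91 on the log2 scale. Cd8a itself, set to the same level in every library, was given an SE of 0.91. The SEs and intervals relative to Cd8a are thus mostly the shared spread and not that of each receptor. The absence of calls on this scale therefore says little about any member. Levels relative to Cd8a were higher in both anti-SIGLEC15 libraries for 3 of 10 members (Cd27, Cd2 and Cd69), where 4.09% of all tested genes were, and lower for 1 (Tnfrsf9), where 5.61% were. Of the 19 tested T cell identity genes, 10 lay higher on this scale and 2 lower, so higher levels relative to Cd8a were not particular to the receptors. With Cd8b1 or Cd3e in place of Cd8a, Cd2 and Cd69 were again higher without overlap, whereas the treatments overlapped for Cd27 and Tnfrsf9, and Cd28 was lower without overlap against Cd3e only. The median log2 fold change relative to Cd8a was 0.00 for the members, 0.19 for the T cell identity genes and -0.49 for all genes tested.

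Among the inducible TNF receptors, Tnfrsf9 (ENSMUSG00000028965, chr4:150914562-150946102, plus strand) encodes 4-1BB, an activation-induced receptor that marks tumour-reactive CD8+ T cells. It measured 81.0 and 118 RPKM in anti-SIGLEC15 replicates 1 and 2, against 67.3 and 136 RPKM in IgG replicates 1 and 2. The IgG pools thus enclosed both anti-SIGLEC15 pools, and the log2 fold change was 0.032 (SE 0.43, 95% interval -1.09 to 1.15). Relative to Cd8a, Tnfrsf9 stood at 27.9% and 37.5% with anti-SIGLEC15 and at 58.6% and 38.8% with IgG. The gap between the nearest libraries, 37.5% and 38.8%, was small beside the distance of IgG replicate 1 from the rest. The relative log2 fold change was -0.55 (SE 0.89), and -0.26 without IgG replicate 1.

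Tnfrsf4 (ENSMUSG00000029075, chr4:156013843-156016612, plus strand) encodes OX40, which prolongs survival of activated T cells, and was the most abundant of the TNF receptor genes. It measured 119.6 and 215 RPKM in the anti-SIGLEC15 libraries, against 101 and 227 RPKM in the IgG libraries. Replicate 2 was the higher library in each treatment, and the treatments overlapped. As a share of Cd8a it stood at 41.2% and 68.1% with anti-SIGLEC15, against 88.2% and 64.5% with IgG. The log2 fold change was 0.080 (SE 0.51) in RPKM and -0.51 (SE 0.91) relative to Cd8a.

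Tnfrsf18 (ENSMUSG00000041954, chr4:156026164-156028895, plus strand) encodes GITR, an activation-induced receptor best known from regulatory T cells. It measured 28.8 and 45.6 RPKM with anti-SIGLEC15, against 22.8 and 46.1 RPKM with IgG, so the treatments overlapped here too. Its share of Cd8a was 9.91% and 14.5% with anti-SIGLEC15, against 19.8% and 13.1% with IgG. The log2 fold change was 0.15 (SE 0.45) in RPKM and -0.42 (SE 0.87) relative to Cd8a. The antisense transcript Gm16008 overlaps Tnfrsf18 and reached up to 3.41 RPKM. Whether strand was used in counting is not given in the sources used here, so their reads cannot be told apart. The same holds for Tnfrsf9 and Camta1, which reached up to 0.996 RPKM.

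These 3 genes kept close proportions to each other within each library. Tnfrsf18 over Tnfrsf9 was 0.355 and 0.385 in the anti-SIGLEC15 libraries, against 0.338 and 0.338 in the IgG libraries. Tnfrsf4 over Tnfrsf9 was 1.48 and 1.81, against 1.51 and 1.66. The first ratio was slightly higher in both anti-SIGLEC15 pools, with the highest library 1.14-fold above the lowest, and the second overlapped. Likeness was measured as the largest difference, over the 4 libraries, between log2(RPKM + 1) values centred on each gene's mean. By this measure Tnfrsf9 was nearest to Tnfrsf18 at 0.11, and Tnfrsf4 was also nearest to Tnfrsf18 at 0.13.

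Regulatory T cells carry OX40, GITR and ICOS at high levels. Their defining factor Foxp3, a gene picked with its values known, stood at 0.724 and 0.118 RPKM in the anti-SIGLEC15 libraries, against 0.177 and 0.451 RPKM in the IgG libraries. The 7 regulatory T cell markers were all detected in at least 1 library and summed to 85.6 and 103 RPKM with anti-SIGLEC15, against 38.9 and 117 RPKM with IgG, led by Ctla4 and Il2ra, which activated CD8+ cells also express. Their part in the levels of Tnfrsf4, Tnfrsf18 and Icos was not tested.

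Tnfrsf1b (ENSMUSG00000028599, chr4:145213463-145246870, minus strand) encodes TNFR2, the TNF receptor of T cells and of several myeloid cell types. It measured 84.8 and 198 RPKM in the anti-SIGLEC15 libraries, against 53.0 and 131 RPKM in the IgG libraries. Anti-SIGLEC15 replicate 2 was the highest library and the only one above both IgG libraries. Relative to Cd8a it stood at 29.2% and 62.7% with anti-SIGLEC15, against 46.1% and 37.4% with IgG, which placed the anti-SIGLEC15 pools at the bottom and the top. The summed RPKM of neutrophil genes was highest in IgG replicate 1, where Tnfrsf1b had its lowest RPKM. It was next highest in anti-SIGLEC15 replicate 2, where Tnfrsf1b had its highest. The part of neutrophils in the level of Tnfrsf1b was not tested. The log2 fold change was 0.63 (SE 0.61) in RPKM and 0.044 (SE 0.90) relative to Cd8a. Without anti-SIGLEC15 replicate 2 these became 0.022 and -0.50, and without IgG replicate 1 the RPKM value was -0.020.

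Cd27 (ENSMUSG00000030336, chr6:125232622-125237010, minus strand) encodes a receptor of naive and memory T cells that binds CD70. It measured 57.9 and 64.0 RPKM with anti-SIGLEC15, against 22.8 and 67.7 RPKM with IgG. Its share of Cd8a, 19.9% and 20.3% with anti-SIGLEC15 against 19.8% and 19.3% with IgG, was the steadiest of all members, with the highest library 1.05-fold above the lowest. Although the libraries did not overlap on this scale, the means were 20.1% ± 0.241 and 19.5% ± 0.383 (SD, n = 2 each), and the relative log2 fold change was 0.041 (SE 0.87). Against Cd8b1 the highest library for Cd27 was 1.44-fold above the lowest, and Cd28 was steadier. Against Cd3e the highest for Cd27 was 1.15-fold above the lowest, and Cd226 was steadier. In RPKM the log2 fold change was 0.61 (SE 0.55). Cd27 overlaps Vamp1 on the other strand, and genes overlapping Cd27 reached up to 1.97 RPKM.

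Of the immunoglobulin superfamily members, Cd28 (ENSMUSG00000026012, chr1:60716800-60773359, plus strand) encodes the receptor for CD80 and CD86 that primes naive T cells. It measured 4.64 and 3.76 RPKM in the anti-SIGLEC15 libraries, against 1.77 and 6.11 RPKM in the IgG libraries. The IgG pools were the lowest and the highest. Its share of Cd8a was 1.60% and 1.19% with anti-SIGLEC15, against 1.54% and 1.74% with IgG, and the log2 fold change was 0.22 (SE 0.51) in RPKM and -0.20 (SE 0.81) relative to Cd8a. On this scale the change of so low a gene is understated.

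Icos (ENSMUSG00000026009, chr1:60977927-61000320, plus strand), whose product binds ICOS ligand and is induced by activation, lies beyond Ctla4, which is 114 kb from Cd28 and 62.1 kb from Icos. Icos measured 13.4 and 16.3 RPKM in the anti-SIGLEC15 libraries, against 5.86 and 17.2 RPKM in the IgG libraries. Its share of Cd8a was 4.60% and 5.15% with anti-SIGLEC15, against 5.10% and 4.88% with IgG, with no separation of treatments. The relative log2 fold change was -0.033 (SE 0.85, 95% interval -1.79 to 1.72).

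Cd226 (ENSMUSG00000034028, chr18:89176967-89272229, plus strand) encodes DNAM-1, an adhesion and activating receptor for CD155 and CD112. It measured 15.5 and 14.8 RPKM with anti-SIGLEC15, against 5.01 and 17.9 RPKM with IgG. Relative to Cd8a it stood at 5.33% and 4.70% with anti-SIGLEC15, against 4.36% and 5.10% with IgG. The IgG libraries bracketed anti-SIGLEC15 replicate 2, and the relative log2 fold change was 0.078 (SE 0.85).

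Cd2 (ENSMUSG00000027863, chr3:101275899-101287939, minus strand) encodes an adhesion receptor that binds CD48 in mice and was the most abundant receptor transcript on average. It measured 205 and 253 RPKM in the anti-SIGLEC15 libraries, against 71.8 and 206 RPKM in the IgG libraries. Anti-SIGLEC15 replicate 1 and IgG replicate 2 were nearly equal, so the treatments overlapped by a narrow margin. As a share of Cd8a it stood at 70.7% and 80.2% with anti-SIGLEC15, against 62.5% and 58.7% with IgG. The mean share was 75.4% ± 6.77 with anti-SIGLEC15 and 60.6% ± 2.68 with IgG (SD, n = 2 each), with both anti-SIGLEC15 libraries above both IgG libraries. The log2 fold change was 0.90 (SE 0.54) in RPKM, 0.14 without IgG replicate 1, and 0.31 (SE 0.90) relative to Cd8a.

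Cd69 (ENSMUSG00000030156, chr6:129267325-129275436, minus strand) had the highest fold change of the 10 members on either scale. It measured 46.4 and 33.0 RPKM in the anti-SIGLEC15 libraries, against 8.36 and 27.8 RPKM in the IgG libraries, so both anti-SIGLEC15 pools lay above both IgG pools. The means were 39.7 ± 9.48 RPKM with anti-SIGLEC15 and 18.1 ± 13.7 RPKM with IgG (SD, n = 2 each). The log2 fold change was 1.29 (SE 0.59, limma adjusted p = 1, unadjusted p = 0.0816), and it was 0.48 without IgG replicate 1. Its share of Cd8a was 15.98% and 10.5% with anti-SIGLEC15, against 7.28% and 7.91% with IgG, a relative log2 fold change of 0.74 (SE 0.87, adjusted p = 0.932) that was 0.69 without IgG replicate 1. The IgG pools were close to each other on this scale, and anti-SIGLEC15 replicate 1 was the highest. Cd69 was also the member least like any other, at 0.56 from Cd226.

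**Figure D3:**
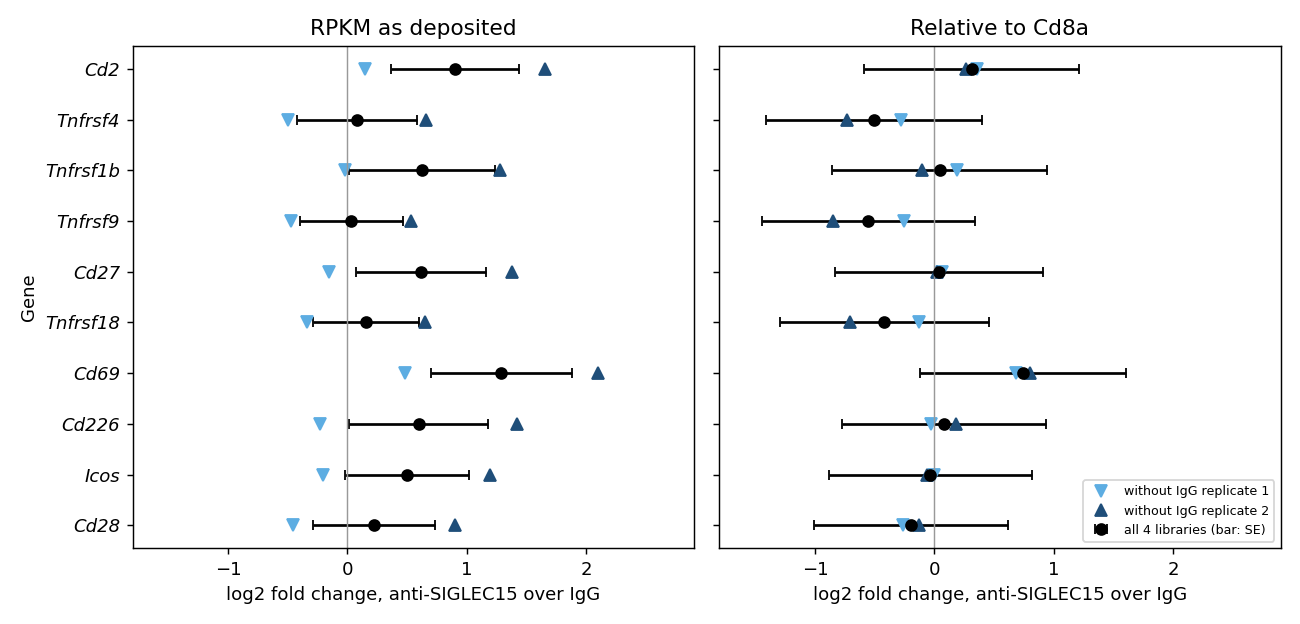
Log2 fold change of anti-SIGLEC15 over IgG for each receptor, in RPKM (left) and relative to Cd8a (right). Black points are the fit of all 4 libraries with its SE, and triangles leave out an IgG library. The triangles spread widely at left (for Cd69 from 0.48 to 2.10) and lie closer together at right (from 0.69 to 0.80).

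Since ratios between receptors need no scaling gene, they were also formed directly, a choice made with the values known. Cd2 over Tnfrsf9 was 2.53 and 2.14 in the anti-SIGLEC15 libraries, against 1.07 and 1.51 in the IgG libraries. Cd27 over Tnfrsf9 was 0.715 and 0.540, against 0.338 and 0.497. Cd69 over Tnfrsf9 was 0.572 and 0.279, against 0.124 and 0.204. For all 3 ratios the anti-SIGLEC15 pools lay above the IgG pools. The 3 share Tnfrsf9 as denominator, so they are not separate observations. Cd8a over Tnfrsf9 was likewise higher in both anti-SIGLEC15 pools, so this is not particular to the receptors. The share of all genes that do so over Tnfrsf9 was not counted. The geometric mean of the 5 activation-induced members, Cd69 included, over that of the 5 found on resting cells was 1.19 and 1.28 with anti-SIGLEC15, against 1.58 and 1.28 with IgG. The treatments overlapped, and IgG replicate 1 alone lay apart from the other libraries.

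Ctla4, Tigit and Cd96, whose products compete with members for ligand, were more abundant than those members, whereas Pvrig, whose product shares a ligand with CD226, was lower than Cd226 in all 4 libraries. Ctla4 exceeded Cd28 by 16.1-fold and 23.7-fold in the anti-SIGLEC15 libraries, against 18.6-fold and 17.0-fold in the IgG libraries. Tigit exceeded Cd226 by 15.23-fold and 20.4-fold, against 18.5-fold and 17.4-fold, and Cd96 exceeded it by 4.36-fold and 5.26-fold, against 5.45-fold and 4.93-fold. The anti-SIGLEC15 pools lay on both sides of the IgG pools for Ctla4 over Cd28 and Tigit over Cd226, and the treatments overlapped for all 3 ratios.

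**Figure D4:**
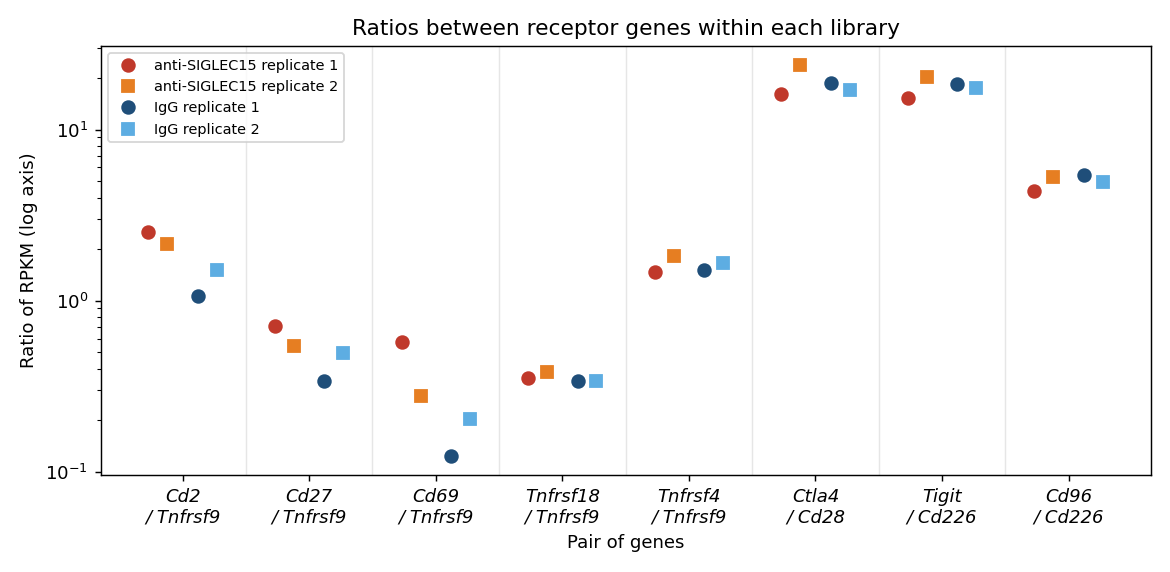
Ratio of the RPKM of 2 receptor genes within each library (log axis), anti-SIGLEC15 left of IgG. Cd2, Cd27 and Cd69 over Tnfrsf9 lie higher in both anti-SIGLEC15 libraries, as Tnfrsf18 does by a small margin, while Tnfrsf4 over Tnfrsf9 and the inhibitory receptors over their rivals overlap between treatments.

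The wider pathway was described by 5 lists, in which 0 genes passed the test in either direction, as for all genes (0%). The percents in brackets are the shares of all 12484 tested genes without overlap in that direction. Of the 11 ligand genes tested out of 12, 2 lay higher in both anti-SIGLEC15 libraries (12.1% of all genes) and 0 lower, and the median log2 fold change was 0.35. Cd48, the ligand of CD2 on blood cells, was the most abundant at 168 and 115 RPKM with anti-SIGLEC15, against 50.6 and 159 RPKM with IgG. Tnf, the ligand of TNFR2, measured 41.6 and 50.8 RPKM, against 44.4 and 20.4 RPKM. Tnfsf4, which encodes OX40 ligand, measured 10.5 and 20.7 RPKM, against 12.7 and 30.1 RPKM, and Cd70, the ligand of CD27, 7.11 and 16.4 RPKM, against 6.97 and 12.6 RPKM. Lta and Cd86 were the 2 higher genes, named here because of their values. Lta measured 10.6 and 7.79 RPKM with anti-SIGLEC15, against 3.74 and 6.67 RPKM with IgG, and Cd86 5.19 and 6.03 RPKM, against 1.59 and 4.81 RPKM.

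All 22 genes for TRAF adaptors and the NF-kB pathway were tested, and 6 lay higher (12.1% of all genes) and 0 lower (6.02%), with a median log2 fold change of 0.33. Relative to Cd8a, 1 lay higher (4.09% of all genes), Tnfaip3, which encodes the NF-kB brake A20. Tnfaip3 measured 215 and 208 RPKM with anti-SIGLEC15, against 71.2 and 204 RPKM with IgG. Nfkbia, the most abundant of the list and the gene of the inhibitor IkB-alpha, measured 778 and 771 RPKM, against 1107 and 599 RPKM. Rela, an NF-kB subunit, measured 34.4 and 39.99 RPKM, against 33.7 and 31.9 RPKM, and Nfkbib 44.2 and 58.2 RPKM, against 35.9 and 45.8 RPKM.

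Signalling genes of CD28, CD2 and CD226 had 7 of 19 tested members higher (12.1% of all genes) and 0 lower (6.02%), with a median of 0.54. The kinase gene Lck measured 159.8 and 165 RPKM with anti-SIGLEC15, against 51.2 and 161 RPKM with IgG, and the kinase gene Fyn 67.1 and 74.5 RPKM, against 18.2 and 64.6 RPKM. Pstpip1, whose product binds the tail of CD2, measured 65.2 and 63.8 RPKM, against 24.5 and 76.7 RPKM, and Akt1 53.8 and 51.2 RPKM, against 43.3 and 69.3 RPKM. Relative to Cd8a, 7 genes of this list lay higher (4.09% of all genes), Lck and Fyn among them, and 1 lower (5.61%), Akt1, around a median of -0.02.

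Inhibitory receptors had 1 of 9 tested members higher (12.1% of all genes) and 0 lower (6.02%), around a median of 0.55. Tigit measured 235 and 302 RPKM with anti-SIGLEC15, against 92.5 and 312 RPKM with IgG, Pdcd1 (PD-1) 172 and 246 RPKM, against 92.9 and 260.1 RPKM, and Lag3 136 and 175 RPKM, against 63.8 and 205 RPKM. Pvrig, the higher one and likewise named for its values, measured 14.0 and 13.7 RPKM, against 4.85 and 11.998 RPKM. Other costimulatory receptors had 3 of 15 tested members higher (Cd7, Cd5 and Tnfrsf8), where 12.1% of all genes were, and 0 lower, around a median of 0.59. The integrin gene Itgal measured 85.8 and 76.1 RPKM, against 29.1 and 97.4 RPKM, Cd6 36.9 and 57.0 RPKM, against 11.6 and 40.6 RPKM, Cd7 64.0 and 35.1 RPKM, against 6.83 and 28.8 RPKM, and the NKG2D gene Klrk1 33.1 and 39.3 RPKM, against 11.98 and 37.9 RPKM. Relative to Cd8a the medians were -0.03 for the inhibitory and 0.16 for the other costimulatory receptors. Without IgG replicate 1, the RPKM medians were 0.18 for ligands, 0.12 for adaptors and NF-kB, 0.07 for signalling genes, -0.28 for inhibitory and -0.09 for other costimulatory receptors.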

How the data were processed

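RNA of CD8+ cells was selected on oligo-coated beads and read on a DNBSEQ-G50, as the labels' protocols state. The deposited files give 1 value per library for each of 36464 Ensembl IDs, and the headers name no unit. The authors' values are taken to be RPKM: multiplied by the exon length in GENCODE M21, they were whole multiples of a step (tolerance 0.02 reads) for 98.9% to 99.0% of genes under 1000 reads. That step also gave reads and library totals. Per the submitters' processing notes the builds were GRCm38 and mm10. Aligner and counter: not given in the sources used here. Symbols matched for 36386 IDs. Promoter sequences are RefSeq's.

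Genes reaching 1 RPKM in 2 or more libraries (12484) were fitted together with limma (trend, robust) on log2(RPKM + 1), a scale that understates changes of low genes. Benjamini-Hochberg adjusted p-values were held to 0.05. Relative levels divide by the Cd8a RPKM of the library and multiply by its mean. The procedure was tested on simulated data: with wide spread between libraries it called few of the smaller changes, so an absence of calls does not show an absence of change, and with narrow spread its share of false calls exceeded the threshold. The members and lists were chosen with earlier results of these data known. Text names all members, Cd8a, the 4 most abundant genes of a pathway list, the 2 most abundant of a cell type list, and others where said. Alternatives covered scalings, filters, a pseudocount of 0.1, limma-voom on recovered reads, other genes in place of Cd8a, a replicate block and omission of each library. A group left with 1 library borrows its spread from the other group. Since libraries are pools of 3 samples, p-values rest on the spread between pools. Relative to Cd8a this is mostly the estimate shared across genes. The software was limma 3.58.1 in R 4.3.3, with scipy 1.17.1, numpy 2.4.6, pandas 2.3.3 and matplotlib 3.10.9 under Python 3.11.15.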

Additional observations from a re-analysis of the deposited data

How the results depend on the processing

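The absence of called members held under all 13 alternatives in RPKM except the fit without IgG replicate 2, and under all 11 relative to Cd8a. Leaving out a library, the called members ranged from 0 to 6 in RPKM and the called genes from 0 to 2129 in RPKM and from 0 to 7218 relative to Cd8a; the cause was not tested. Called genes numbered 3 with T cell identity scaling, with Cd8b1 or Cd3e in place of Cd8a and with T cell identity in place of Cd8a, and, relative to Cd8a, 7 with a filter at 5 RPKM, 4 with a pseudocount of 0.1 and 8 with the replicate block; 0 of these were members. The members' median ranged from -0.22 to 1.24 with a library left out and was -0.16 with T cell identity scaling. Relative to Cd8a it ranged from -0.08 to 0.02 with a library left out, and was 0.19 against Cd8b1 and -0.17 against T cell identity. The median of all genes moved by -0.65 with T cell identity scaling and by -0.51 with Cd8a scaling.

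Signs in RPKM turned as follows. With T cell identity scaling the log2 fold change was -0.73 for Tnfrsf9, -0.68 for Tnfrsf4, -0.59 for Tnfrsf18, -0.13 for Tnfrsf1b, -0.13 for Cd27, -0.33 for Cd28, -0.20 for Icos and -0.086 for Cd226. With Cd8a scaling it was -0.55, -0.51 and -0.42 for Tnfrsf9, Tnfrsf4 and Tnfrsf18, -0.20 for Cd28 and -0.033 for Icos, and with median-of-ratios scaling -0.03 for Tnfrsf9. With a library left out, the range was -0.47 to 0.54 for Tnfrsf9, -0.50 to 0.66 for Tnfrsf4, -0.34 to 0.65 for Tnfrsf18, -0.02 to 1.27 for Tnfrsf1b, -0.15 to 1.38 for Cd27, -0.46 to 0.90 for Cd28, -0.21 to 1.198 for Icos and -0.23 to 1.42 for Cd226. The sign of Cd2 and Cd69 was positive under all alternatives on both scales. Relative to Cd8a, Tnfrsf1b was -0.13, Cd27 -0.13 and Cd226 -0.086 against T cell identity, and Icos 0.15 against Cd8b1. With a library left out the relative range was -0.50 to 0.59 for Tnfrsf1b, -0.11 to 0.043 for Icos and -0.026 to 0.18 for Cd226.

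Deviations of same-numbered libraries from their treatment means had a correlation of 0.33 over 12484 genes, and the crossed pairing had -0.33. These are opposite by construction, so a positive value for some pairing was fixed in advance and is no evidence of pairing. With 2 pairs the libraries share only a number. With the replicate block the called genes were 0 in RPKM, with 303 genes and 2 members (Cd2 and Cd69) at an unadjusted p under 0.05, and 8 relative to Cd8a, and the members' medians were 0.55 and 0.00. Cd28 was not tested at 5 RPKM, since too few libraries reached it. Depth limits Cd28 most.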

Other observations

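Each of the following was picked after the values were seen, and none was tested. Tnfsf9, which encodes the ligand of 4-1BB, measured 9.33 and 13.5 RPKM in the anti-SIGLEC15 libraries, against 5.03 and 10.2 RPKM in the IgG libraries. Its ratio to Tnfrsf9 was 0.115 and 0.114 with anti-SIGLEC15, against 0.0748 and 0.0752 with IgG, so that the libraries of each treatment nearly coincided. The corresponding ratio of Tnfsf4 to Tnfrsf4 went the other way, at 0.0879 and 0.0964 with anti-SIGLEC15, against 0.125 and 0.133 with IgG. For Cd70 over Cd27 the treatments overlapped, at 0.123 and 0.256 with anti-SIGLEC15, against 0.306 and 0.185 with IgG, as they did for Cd48 over Cd2, at 0.818 and 0.455, against 0.705 and 0.773.

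Among 6795 other genes with a mean of at least 5 RPKM, those nearest to Cd2, the most abundant member, over the 4 libraries were H2-K1, a class I heavy chain gene, Gm15472 and Gpr171, a receptor gene, at 0.03, 0.04 and 0.04 on the log2 scale. In all, 6 genes lay within 0.1 of it. Among members, Cd27 and Cd226 were nearest to each other at 0.11, Icos was 0.12 and Cd2 0.22 from Cd27, Cd28 was 0.33 from Cd226, and Tnfrsf1b was 0.46 from Tnfrsf4.

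Natural killer cells also carry CD226, CD2, CD27 and CD69. The 8 natural killer markers summed to 87.9 and 123 RPKM in the anti-SIGLEC15 libraries, against 103 and 74.3 RPKM in the IgG libraries, led by Tyrobp and Klre1. Tyrobp, at 18.7 and 41.3 RPKM against 58.2 and 5.32 RPKM, ordered the libraries as the summed neutrophil genes did. The sum is therefore no measure of natural killer cells alone. The defining markers Ncr1 and Klrb1c stayed at or under 0.732 RPKM everywhere and at 0 in 1 IgG library each. Klra8 and Klra4 stayed at or under 0.487 RPKM. Other markers of the list were higher: Klre1 measured 31.3 and 37.6 RPKM with anti-SIGLEC15, against 9.25 and 35.2 RPKM with IgG. Eomes measured 21.8 and 18.2 RPKM, against 5.11 and 22.6 RPKM, and Fcer1g lay between 10.7 and 30.1 RPKM. The part of natural killer cells in the levels of these receptors was not tested.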
